A study of Mus musculus with 8 samples.

Results

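The genes described here encode 4 receptors by which phagocytes recognise dying cells and 3 secreted proteins that bridge the dying cell to a receptor. The receptors were Mertk, Axl, Tyro3 and Timd4, and the bridges were Gas6, Pros1 and Mfge8. They were taken as every non-control probe whose gene name on the array equals 1 of these 7 symbols, which gave 8 probes for 7 genes, of 55681 probes for 34787 genes on the array. Of these, 7 probes for 6 genes passed the filter on dim probes, as did 39411 probes for 26504 genes in all, and Timd4 did not. RNA was measured on 8 single-colour arrays, 2 for each of 4 groups of mouse bone marrow cells. Colony cells grew for 7 days from bone marrow on a monolayer of endothelial cells in a medium for hematopoietic stem cells (labelled HSC). The other groups were bone marrow derived macrophages, grown for 7 days on a dish with M-CSF, the growth factor that drives macrophage formation. They received IL-4, a cytokine of type 2 immunity, for 24 hours, or LPS, a bacterial cell wall product, for 24 hours, or control medium. All mice were B6 animals with a DsRed transgene (the CAG-DsRed*MST line), in which the broadly active CAG promoter drives a red fluorescent protein, so the control macrophages carried it too. The labels give neither the animals' ages nor whether duplicates were taken from different mice or dishes, so p-values measure only the spread between these samples, which may be technical. They do not name the source of the endothelial cells or say whether these were removed before RNA was taken. Colony cells differed from macrophages in both what they grew on and what they grew in.

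Clearance of dying cells, or efferocytosis, starts when a phagocyte recognises phosphatidylserine, a lipid that dying cells expose on their surface. Tyro3, Axl and Mertk, the TAM family of receptor tyrosine kinases, do not bind this lipid themselves. Gas6 and Pros1 (protein S, also an anticoagulant) bind it at one end and a TAM receptor at the other. Gas6 binds all TAM receptors, whereas Pros1 binds Tyro3 and Mertk. Mfge8 links phosphatidylserine to the integrins alpha-v beta-3 and alpha-v beta-5, and Timd4 (TIM-4) binds the lipid directly. In mouse macrophages Mertk is the TAM receptor best known for uptake at rest, and Axl the one known to be induced by inflammatory signals.

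Each gene except Tyro3 had 1 probe, of about 60 bases near the end of its transcript. On build mm9 the probes lay at chr2:128627867-128627924 on the plus strand for Mertk, chr7:26542541-26542600 on the minus strand for Axl, chr8:13465444-13465503 on the minus strand for Gas6, chr16:62928674-62928733 on the plus strand for Pros1, chr7:86278689-86278748 on the minus strand for Mfge8 and chr11:46657173-46657232 on the plus strand for Timd4. No annotation of that build was used, so exon and untranslated region are not given. Tyro3 had 2 probes for the same transcript, starting 1249 bases apart, and they gave opposite results after LPS. Their first 30 bases, from the array files, are shown because the reading of Tyro3 depends on which is used. The upstream probe starts at base 2658 of the transcript, with the stretch shown at chr2:119642510-119642539. The downstream probe starts at base 3907, with the stretch shown at chr2:119643759-119643788. Both are on the plus strand of mm9.
Tyro3 upstream probe: atcaacattgagagagctgagcagcctact
Tyro3 downstream probe: gcaggctcttgctgttaggaacatttctaa

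The 250 bases before the annotated start are shown for the 4 genes measured lower after LPS by their single probe (Mertk, Gas6, Pros1 and Mfge8) and for Axl, which was not called there. The sequences are RefSeq's on build GRCm38.p6, in which all 7 genes were matched by symbol. They lie at chr2:128698665-128698914 (+), chr7:25788734-25788983 (-), chr8:13494536-13494785 (-), chr16:62854057-62854306 (+) and chr7:79149061-79149310 (-), and each reads 5' to 3' on its gene's strand. Capitals mark matches, on either strand, to the SP1 box GGGCGG and to the STAT6 motif TTCNNNNGAA.
Mertk: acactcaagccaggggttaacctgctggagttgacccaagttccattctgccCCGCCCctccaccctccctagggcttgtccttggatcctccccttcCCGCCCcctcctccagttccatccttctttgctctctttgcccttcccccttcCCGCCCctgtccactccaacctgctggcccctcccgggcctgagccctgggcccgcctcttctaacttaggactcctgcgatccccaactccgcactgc
Axl: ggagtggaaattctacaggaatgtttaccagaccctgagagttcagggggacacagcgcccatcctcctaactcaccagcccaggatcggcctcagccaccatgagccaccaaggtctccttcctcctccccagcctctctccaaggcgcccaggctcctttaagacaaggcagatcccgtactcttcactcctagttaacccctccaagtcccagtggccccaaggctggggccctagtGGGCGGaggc
Gas6: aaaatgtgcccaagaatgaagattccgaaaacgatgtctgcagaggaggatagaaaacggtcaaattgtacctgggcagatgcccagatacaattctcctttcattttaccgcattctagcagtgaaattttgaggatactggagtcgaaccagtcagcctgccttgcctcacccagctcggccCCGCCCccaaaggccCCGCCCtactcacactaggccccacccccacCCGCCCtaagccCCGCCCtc
Pros1: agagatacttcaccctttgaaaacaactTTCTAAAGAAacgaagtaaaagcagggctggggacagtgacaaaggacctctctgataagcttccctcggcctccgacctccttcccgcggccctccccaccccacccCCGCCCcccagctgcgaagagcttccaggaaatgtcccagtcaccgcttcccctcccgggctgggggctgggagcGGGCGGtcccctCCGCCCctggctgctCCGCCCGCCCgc
Mfge8: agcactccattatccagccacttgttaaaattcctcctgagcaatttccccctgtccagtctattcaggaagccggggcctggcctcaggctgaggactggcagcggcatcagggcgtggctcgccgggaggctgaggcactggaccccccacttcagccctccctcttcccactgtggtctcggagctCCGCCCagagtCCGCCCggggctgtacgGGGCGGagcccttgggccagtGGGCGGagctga

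An SP1 box was found in 6 of the 7 genes, all but Timd4, against 32.7% of 32851 promoters of the same length. The STAT6 motif, bound by the transcription factor that IL-4 activates, was found in Pros1 and in none of the other 6 genes, where 5.85% of promoters held it. The Pros1 match lies from -222 to -213, counted back from the start. A loose NF-kB pattern, GGGNNNNNCC, matched in the same 6 genes as the SP1 box and in 45.8% of promoters, and several of its matches overlap SP1 boxes, so it is left in lower case. The interferon response pattern GAAANNGAAA (2.98% of promoters) and the AP-1 motif TGANTCA (6.75%) matched in none of the 7. The nuclear receptor core motif AGGTCA (14.0%) and the MAF core motif TGCTGA (16.1%) matched in Timd4 only. These matches describe the letters in this window and nothing about binding.

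Levels are given as log2 signal relative to the 75th percentile of each array, so 1 unit is a doubling, and values of replicates 1 and 2 are given in that order. Differences are log2 differences of group means with their standard errors, from 1 limma fit over all 26504 genes and 8 arrays. Values of the upstream Tyro3 probe come instead from a limma fit over all 39411 kept probes, with p adjusted over these. A gene was called higher or lower where its p, adjusted over all of these genes by the Benjamini-Hochberg method, was under 0.05. Per array, 62.4% to 72.2% of spots stood well above background, and replicate arrays correlated at 0.986 to 0.997 across genes. The second LPS array stood apart, with 105 spots marked uneven against 0 to 5 on the others. No probe of the 7 genes was saturated on any array. The number of arrays limits the precision, and exact permutation of 2 against 2 arrays gives no 2-sided p below 0.333. Each call therefore rests on a model in which a gene has 1 spread pooled over the 4 groups, taken as equal among them and partly shared across genes. In all of these bulk samples, fewer cells of a type and less RNA per cell cannot be told apart.

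The markers of macrophages, mesothelium and fibroblasts separated colony cells from the macrophage groups. Of 11 macrophage markers, 10 were lower and 1, Itgam, higher in colony cells than in control macrophages, with a median log2 difference of -3.41. Their summed signal lay between 8.14 and 8.19 on the log2 scale on the colony cell arrays, against 11.36 and 11.37 on the control arrays. All 11 were well above background in both groups. All 10 pan-leukocyte markers were lower, with a median of -3.03 (summed signals 7.28 to 7.29 against 10.23 to 10.26). All 10 mesothelial markers were higher, with summed signals of 8.69 to 8.74 in colony cells against -3.40 to -3.17 in control macrophages, where 7 of the 10 were not well above background. Of 9 fibroblast markers, 8 were higher (summed signals 7.94 to 7.97 against -0.85 to -0.56) and Col1a2 was lower. Of 8 mast cell markers, 7 were higher (summed signals 2.75 to 2.76 against -0.51 to -0.22). In control macrophages 5 of the 9 fibroblast and 5 of the 8 mast cell markers were not well above background. Markers dim in control could pass the filter through the colony cells, where they are high. With only probes well above background on all 8 arrays, 2 mesothelial and 2 mast cell markers were called, all higher. Of the fibroblast markers 2 were then higher and 1 lower. Of 10 endothelial markers 8 passed the filter, of which 3 were higher and 4 lower (summed signals 4.46 to 4.47 against 5.08 to 5.27), and they went both ways: Esam was at least 451-fold higher, Tek at least 4.03-fold higher and Egfl7 2.92-fold higher, whereas Vwf was 19.9-fold lower and Cdh5 was not well above background in colony cells. Of 8 neutrophil markers 2 were higher and 1 lower (5.49 to 5.52 against 5.57 to 5.83), and of 5 megakaryocyte and platelet markers 4 were higher and 1 lower (6.59 to 6.61 against 5.89 to 6.07). Every difference between colony cells and macrophages below stands beside these values, and the part of the other cell types in it was not tested. Marker lists also differed among the macrophages. With IL-4 against control, 1 macrophage marker was higher and 7 lower (summed signals at most 11.08 against 11.36 to 11.37), 2 pan-leukocyte markers were higher and 1 lower, 1 neutrophil marker was higher and 4 lower (5.31 against 5.57 to 5.83), and 2 megakaryocyte and platelet markers were lower (4.65 to 4.70 against 5.89 to 6.07). In the same comparison 2 fibroblast markers were lower (-1.46 to -1.36 against -0.85 to -0.56), as were 2 mast cell markers (-1.24 to -0.96 against -0.51 to -0.22). Of the endothelial markers 1 was higher, Vwf (2.81-fold), and 1 lower, and their summed signal was higher (5.94 to 5.97 against 5.08 to 5.27). With LPS against control, 5 macrophage markers were higher and 6 lower (11.06 to 11.27 against 11.36 to 11.37), 7 pan-leukocyte markers were higher and 2 lower (10.82 to 11.01 against 10.23 to 10.26), and 2 neutrophil markers were higher and 5 lower (5.28 to 5.35 against 5.57 to 5.83). Fibroblast markers were 3 higher and 2 lower (0.56 to 0.74 against -0.85 to -0.56), and megakaryocyte and platelet markers 3 higher (6.30 to 6.42 against 5.89 to 6.07). Of the mesothelial markers 1 was higher (-2.07 to -1.67 against -3.40 to -3.17), and of the endothelial 2 were higher and 2 lower (4.51 to 4.57 against 5.08 to 5.27). With another background correction 1 mesothelial marker was higher and 2 lower, and 1 megakaryocyte and platelet marker was higher. With only probes well above background on all 8 arrays, no mesothelial marker was called. The summed mast cell signal was higher with LPS (3.11 to 3.20 against -0.51 to -0.22) through Hdc, the histidine decarboxylase gene, which rose by 6.08 ± 0.13 (adjusted p = 3e-06) as the only one of the 8 called higher, while Kit and Tpsb2 fell. The part of these markers in the IL-4 and LPS results was not tested.

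Mertk was highest in control macrophages and lower in each of the other groups. Its log2 signal was -0.98 and -1.16 in colony cells, 2.35 and 2.31 with IL-4, and 1.82 and 1.75 with LPS, against 3.29 and 3.47 in control macrophages. The 4 groups did not overlap, with IL-4 and LPS between the highest (control) and the lowest (colony cells), and every pair of neighbours was called. Colony cells were 21.9-fold below control macrophages (-4.45 ± 0.10, adjusted p = 1.1e-06). Mertk fell by 1.05 ± 0.10 on the log2 scale with IL-4 (adjusted p = 0.0021) and fell by 1.60 ± 0.10 with LPS (adjusted p = 8.7e-05). The difference between the stimuli was itself called, with IL-4 above LPS by 0.54 (adjusted p = 0.0063). In colony cells against control macrophages the 11 macrophage markers ranged from -8.06 to 0.46, which takes in the Mertk difference of -4.45. The 10 pan-leukocyte markers ranged from -4.13 to -1.60 there, all less far below control than Mertk.

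Axl, the other TAM receptor with a clear signal, ran the other way in colony cells. Its log2 signal was 3.89 and 3.76 in colony cells, 2.07 and 2.05 with IL-4, and 2.55 and 2.62 with LPS, against 2.36 and 2.46 in control macrophages. Colony cells were 2.67-fold above control macrophages (1.42 ± 0.08, adjusted p = 3e-05), 3.40-fold above IL-4 (adjusted p = 1.3e-05) and 2.36-fold above LPS (adjusted p = 4.3e-05). Among the macrophages the order was LPS, control and IL-4, and the neighbours were close. Axl was 0.18 ± 0.08 higher with LPS than in control macrophages, which was not called (adjusted p = 0.12). With another background correction (normexp) the same difference was 0.25 and called (adjusted p = 0.031), and with arrays centred on their medians it was -0.0046. With IL-4, Axl fell by 0.35 ± 0.08 (adjusted p = 0.035). This call was lost without any 1 of the control, IL-4 or colony cell arrays, with differences of -0.40 to -0.30. It was also lost with normexp (-0.26, adjusted p = 0.064) and with median centring (-0.32, adjusted p = 0.21). The same held in the deposited table (-0.32, adjusted p = 0.22) and with no filter on dim probes (-0.35, adjusted p = 0.069). IL-4 was below LPS (-0.53, adjusted p = 0.0029), though with median centring (-0.32, adjusted p = 0.10) and in the deposited table (-0.31, adjusted p = 0.11) the call was lost.

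The 2 Tyro3 probes were both faint in macrophages and gave different patterns. The downstream probe stands for the gene in the fit because its mean over all 8 arrays was the higher, which came from the colony cells alone, so its colony cell value also decided that it was used. On it the log2 signal was 1.16 and 1.10 in colony cells, -4.96 and -4.89 with IL-4, and -5.77 and -5.67 with LPS, against -4.55 and -4.96 in control macrophages. On that probe colony cells stood far above every macrophage array, IL-4 overlapped control, and LPS lay below both, with its second array not well above background. Colony cells were 58.8-fold above control macrophages (5.88 ± 0.14, adjusted p = 1.4e-06). LPS was lower than control (-0.97 ± 0.14, adjusted p = 0.0024), with differences of -0.49 after normexp and -1.60 after quantile normalization, and the IL-4 difference from control of -0.17 was not called (adjusted p = 0.48) and was 0.03 without control replicate 1. IL-4 stood above LPS by 0.80 (adjusted p = 0.0055), or by 0.30 with normexp, where the call was lost (adjusted p = 0.09).

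On the upstream probe the log2 signal was -3.59 and -3.84 in colony cells, -4.44 and -4.23 with IL-4, and -2.79 and -2.44 with LPS, against -4.09 and -3.99 in control macrophages. Here LPS was the highest group. It was 1.43 ± 0.16 above control macrophages (2.69-fold, adjusted p = 0.00099), whereas colony cells differed from control by 0.32, which was not called (adjusted p = 0.12). Colony cells were below LPS on the upstream probe (-1.11, adjusted p = 0.0015) and above LPS by 6.85 on the downstream probe (adjusted p = 6.9e-07). The probes agreed in direction only for colony cells against IL-4 (0.62 upstream, adjusted p = 0.016, and 6.05 downstream) among the pairs called on both. Probes called in opposite directions occurred in 6.05% of the 8103 genes with 2 or more kept probes for LPS against control and in 8.73% for colony cells against LPS. These arrays do not settle the direction of Tyro3 after LPS, and which transcript forms each probe binds was not tested. The RefSeq table places the small nuclear RNA gene Gm23814 within 5 kb of Tyro3, without overlap.

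**Figure D1:**
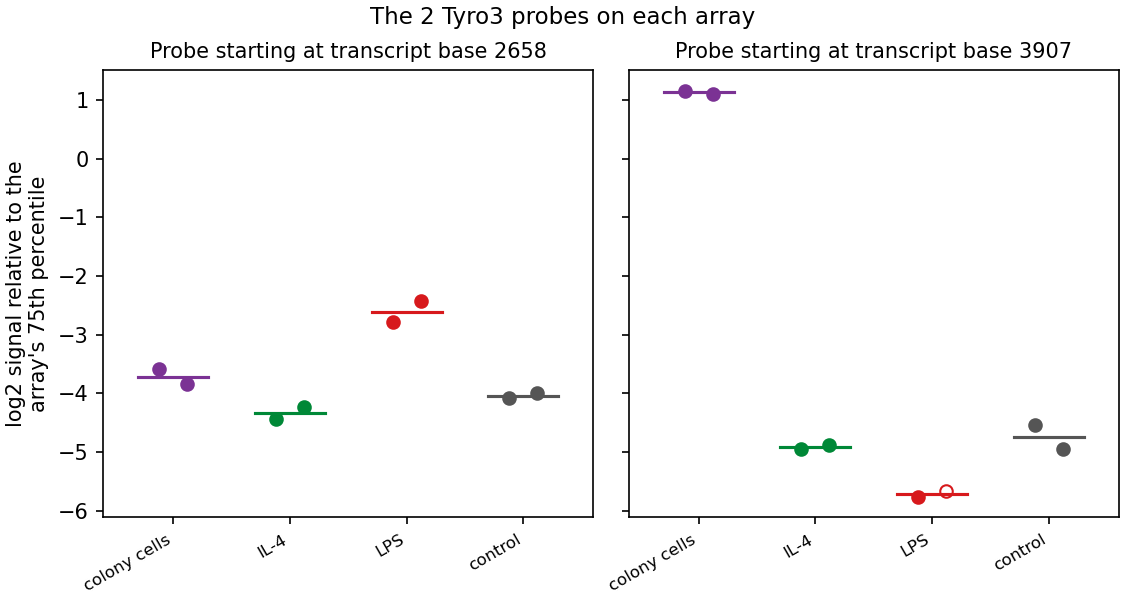
Log2 signal relative to the array's 75th percentile (y axis) on the 2 Tyro3 probes, for the 4 groups on the x axis, with points for arrays, bars for group means and open points for a signal not well above background. The LPS arrays are the highest on the probe at base 2658 (-2.79 and -2.44) and the lowest on the probe at base 3907 (-5.77 and -5.67), where colony cells reach 1.16 and 1.10.

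The ligand Gas6 was the gene of this set that fell most after LPS. Its log2 signal was 5.11 and 5.20 in colony cells, 6.13 and 6.22 with IL-4, and 3.34 and 3.45 with LPS, against 7.49 and 7.60 in control macrophages. The groups did not overlap and stood in the order control, IL-4, colony cells and LPS, with each pair of neighbours called. With LPS Gas6 was 17.7-fold lower than in control macrophages (-4.15 ± 0.08, adjusted p = 2.5e-06). It was 5.24-fold lower in colony cells (-2.39 ± 0.08, adjusted p = 4.7e-06) and 2.58-fold lower with IL-4 (-1.37 ± 0.08, adjusted p = 0.00047). IL-4 stood above LPS by 2.78 (adjusted p = 6.2e-06), and colony cells stood below IL-4 (-1.02, adjusted p = 0.00013).

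Pros1, the other TAM ligand, was lower with LPS and close to control elsewhere. Its log2 signal was 1.92 and 1.91 in colony cells, 2.63 and 2.70 with IL-4, and -0.54 and -0.36 with LPS, against 2.16 and 2.17 in control macrophages. LPS lay far below the other 3 groups, which were within 0.75 of each other on the log2 scale. Pros1 was 6.15-fold lower with LPS (-2.62 ± 0.08, adjusted p = 8.1e-06). It rose by 0.49 ± 0.08 with IL-4 (adjusted p = 0.013), and without either control array or either IL-4 array this call was lost, at adjusted p between 0.051 and 0.093. In colony cells it fell by 0.26 ± 0.08 (adjusted p = 0.033), and the difference was 0.0012 with quantile normalization (adjusted p = 0.99). That call was also lost without any 1 of the control, IL-4 or colony cell arrays (adjusted p between 0.06 and 0.11). The difference between IL-4 and LPS was 3.11 (8.66-fold, adjusted p = 4.2e-06), the largest of the 6 genes between the stimuli.

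Mfge8, the integrin bridge, was lower with LPS and highest in colony cells. Its log2 signal was 6.82 and 6.82 in colony cells, 6.23 and 6.32 with IL-4, and 3.96 and 4.09 with LPS, against 5.95 and 6.05 in control macrophages. LPS was 3.92-fold below control macrophages (-1.97 ± 0.08, adjusted p = 2.1e-05). Colony cells were above control by 0.83 ± 0.08 (1.77-fold, adjusted p = 3e-04) and above IL-4 by 0.55 (adjusted p = 0.0017). IL-4 was above control by 0.28 ± 0.08, which was not called (adjusted p = 0.073) but was called with normexp (adjusted p = 0.039), with a stricter filter (0.048) and with an intensity trend (0.027). IL-4 stood above LPS by 2.25 (4.76-fold, adjusted p = 1.2e-05).

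Timd4, a receptor best known on resident tissue macrophages, was not well above background on any of the 8 arrays. No fold is given for it, and the arrays set no order among its groups.

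**Figure D2:**
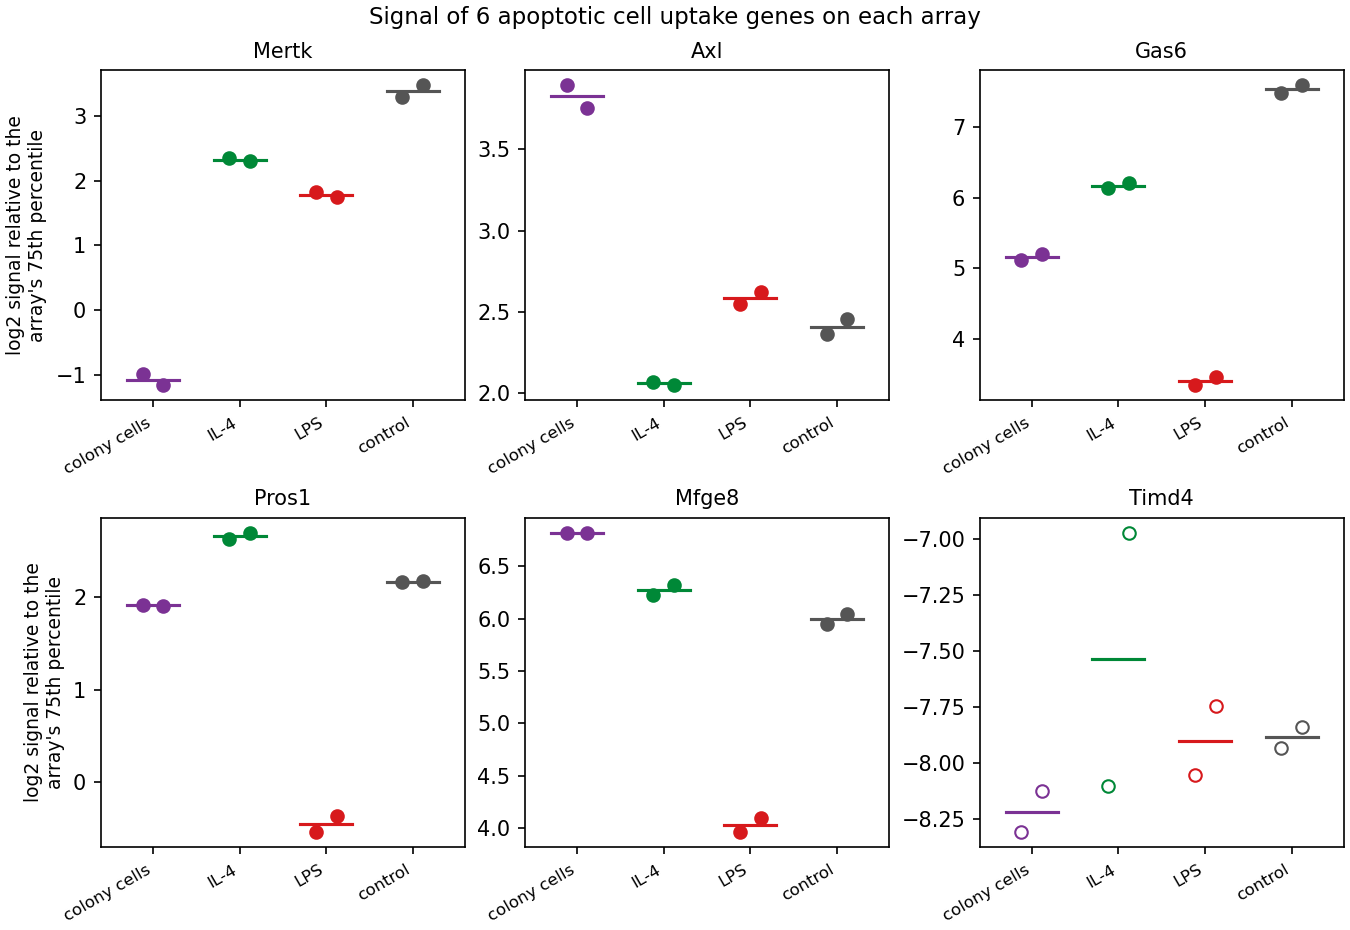
Log2 signal relative to the array's 75th percentile (y axis, own scale per panel) of Mertk, Axl, Gas6, Pros1, Mfge8 and Timd4 on each array (points) with group means (bars), for the 4 groups on the x axis. LPS is lowest for Gas6, Pros1 and Mfge8, colony cells are lowest for Mertk and highest for Axl and Mfge8, and the open Timd4 points are not well above background.

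With LPS against control, 5 of the 6 genes tested were called lower and Axl was not called, where 54.7% of all genes tested were called, 28.9% higher and 25.8% lower. Of these, 4 (Mertk, Gas6, Pros1 and Mfge8) changed at least 2-fold, against 22.2% of all genes. The fifth was Tyro3, on its downstream probe only, so 4 genes were lower on every probe that measured them. The median log2 difference over the 6 genes was -1.78, against 0.07 over all genes. The arrays of LPS and control did not overlap for any of the 6, as for 75.2% of all genes.

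With IL-4 against control, 4 of 6 genes were called, where the share of all genes was 19.0%. Pros1 was higher (9.87% of all genes were) and Mertk, Axl and Gas6 were lower (9.18%). Mertk and Gas6 changed at least 2-fold, as 4.40% of all genes did. The median over the 6 genes was -0.26, against -0.01 over all genes. Without either control array or either IL-4 array the count was 2, Mertk and Gas6.

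Between the stimuli, all 6 genes differed, where 52.6% of all genes did. With IL-4 against LPS, 5 were higher (25.8% of all genes) and Axl was lower (26.8%). Gas6, Pros1 and Mfge8 differed at least 2-fold, as 21.5% of all genes did. Tyro3, counted among the 5, was lower on its upstream probe (-1.72, adjusted p = 0.00051).

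In colony cells all 6 genes were called against each macrophage group, where most of the array was called too. Against control macrophages 71.4% of all genes were called, 24.7% higher and 46.7% lower. Axl, Tyro3 and Mfge8 were higher and Mertk, Gas6 and Pros1 lower, although Tyro3 was not called on its upstream probe (adjusted p = 0.12) and the Pros1 call was lost without any 1 of 6 arrays, which left 5 of the 6 genes. In that comparison 4 of the 6 changed at least 2-fold, against 38.2% of all genes. Against IL-4 macrophages the same 3 genes were higher and the same 3 lower, where 71.7% of all genes were called, 24.3% higher and 47.4% lower, and 4 of 6 reached 2-fold, against 38.1%. Against LPS macrophages 5 were higher (4 where Tyro3, lower on its upstream probe, is left out) and Mertk was lower, where 76.5% of all genes were called, 26.8% higher and 49.7% lower, and all 6 reached 2-fold, against 45.0%. The comparisons against control share the control arrays, and those in colony cells share the colony cell arrays, so the counts are not independent of each other.

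**Figure D3:**
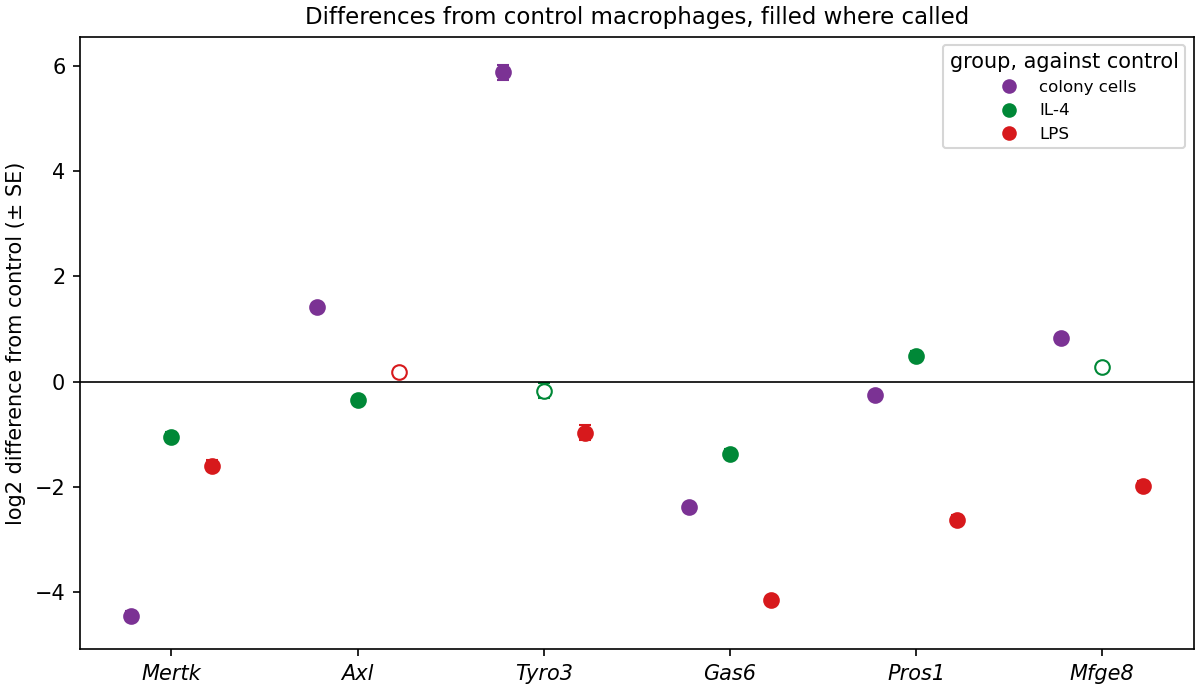
Log2 difference from control macrophages with its standard error (y axis) for colony cells, IL-4 and LPS in the 6 genes tested (x axis, Tyro3 on its downstream probe), filled where called. LPS lies at or below -0.97 for 5 genes and at 0.18, open, for Axl, while colony cells range from -4.45 for Mertk to 5.88 for Tyro3.

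No gene of the set was among the 3 most like any other of them. Likeness was the root mean square difference, over the 8 arrays, between the log2 values of 2 genes, each centred on its own mean, searched over 16045 genes with a symbol. Within the set Pros1 and Mfge8 were closest (0.516) and Mertk and Tyro3 farthest apart (4.27). The genes most like Mertk were Lyl1 (0.177), Olfr128 (0.196) and Vsir (0.242). Those most like Axl were H2ac11 (0.0743), Ppp1r15a (0.098) and Disp1 (0.103), and those most like Tyro3, on its downstream probe, were Cldn15 (0.231), Efna5 (0.25) and Tgfb1i1 (0.252). Gas6 was followed most closely by Plxna2 (0.156), Kif3a (0.248) and Dbp (0.252), Pros1 by Klk1b24 (0.124), Klk1b4 (0.134) and Slc39a10 (0.159), and Mfge8 by Fry (0.105), Zfp608 (0.12) and Ifi27 (0.13). Klk1b24 and Klk1b4 are close paralogs, whose probes can share RNA.

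The counts in the 5 lists of related genes stand against the shares over all genes, which were 28.9% higher and 25.8% lower with LPS (median 0.07), 9.87% higher and 9.18% lower with IL-4 (median -0.01), and 24.7% higher and 46.7% lower in colony cells (median -0.36), all against control.

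Other receptors for dying cells or their debris moved in both directions. Of 18 listed, 16 passed the filter, and Havcr1 and Megf10 did not. With LPS 5 rose and 8 fell (median -0.51, against 0.07 over all genes). Stab2 (stabilin-2, which binds phosphatidylserine) fell by 6.12 ± 0.11 on the log2 scale (adjusted p = 2e-06). Itgb3, the beta-3 chain of the integrin that Mfge8 bridges to, fell by 4.18 ± 0.06 (adjusted p = 1.3e-06). Olr1 (the scavenger receptor LOX-1), not well above background in control macrophages, was at least 11.8-fold higher (adjusted p = 3.7e-06). Itgb3 and its bridge Mfge8 were both lower with LPS, whereas with IL-4 Itgb3 rose by 2.41 ± 0.06 (adjusted p = 3e-05) while Mfge8 was not called.

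With IL-4 4 of the 16 receptors rose and 3 fell (median -0.16, against -0.01 over all genes). Besides Itgb3, Olr1 was at least 4.39-fold higher (adjusted p = 6.2e-05), and Cd14, an LPS co-receptor that also takes part in uptake, fell by 2.27 ± 0.13 (adjusted p = 0.00039). In colony cells 3 were higher and 10 lower (median -1.10, against -0.36 over all genes). Cd36, a scavenger receptor, was lower (-6.82 ± 0.16, adjusted p = 1.2e-06), as was Stab2 (-6.65 ± 0.11, adjusted p = 5.6e-07), and Olr1 was at least 147-fold higher (adjusted p = 4.7e-07).

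All 12 other bridges and opsonins passed the filter. With LPS 4 rose and 6 fell (median -0.34). Complement C3 rose by 2.99 ± 0.09 (adjusted p = 7.2e-06). Edil3, which like Mfge8 links phosphatidylserine to integrins, was at least 4.73-fold lower (adjusted p = 0.00085). For the pentraxin Ptx3 the rise was at least 5.09-fold (adjusted p = 0.0011), while with normexp its difference was 0.45 and the call was lost (adjusted p = 0.064). With IL-4 3 rose and 2 fell (median -0.01). Anxa1 (annexin A1) rose by 1.09 ± 0.07 (adjusted p = 7e-04), Calr (calreticulin, an eat-me signal) by 0.87 ± 0.08 (adjusted p = 0.0022), and Thbs1 (thrombospondin-1) fell by 2.05 ± 0.14 (adjusted p = 0.00073). In colony cells 3 were higher and 9 lower, all 12 of them called (median -1.35), where 71.4% of all genes were called with a median of -0.36. C1qb, a chain of complement C1q, was lower (-3.73 ± 0.07, adjusted p = 7.5e-07), Edil3 was at least 5.94-fold lower (adjusted p = 0.00045), and Ptx3 was at least 473-fold higher (adjusted p = 1.4e-05).

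Of 15 genes that signal for engulfment inside the phagocyte, 7 rose and 5 fell with LPS (median 0.47), where 54.7% of all genes were called with a median of 0.07. Dock1, which activates the GTPase Rac1 downstream of uptake receptors, fell by 2.09 ± 0.07 (adjusted p = 8.9e-06), and Vav3, another exchange factor, fell by 1.35 ± 0.08 (adjusted p = 7.6e-05). Ptk2 (focal adhesion kinase) rose by 1.34 ± 0.09 (adjusted p = 0.00013). With IL-4 4 rose and 3 fell (median -0.05), a total of 7 that came to 3 and 4 without IL-4 replicates 1 and 2. Ptk2 rose by 0.75 ± 0.09 (adjusted p = 0.005), and Abca1, a lipid exporter, fell by 0.94 ± 0.09 (adjusted p = 0.0021). Elmo2, the partner of Dock1, rose by 1.06 ± 0.20 (adjusted p = 0.02), a call lost without control replicate 1 (adjusted p = 0.061) and without either IL-4 array (adjusted p = 0.061 and 0.11). In colony cells 2 were higher and 10 lower (median -0.57). Ptk2 was higher by 3.83 ± 0.09 (adjusted p = 1.5e-06) and Gulp1, an adaptor of uptake receptors, by 3.43 ± 0.06 (adjusted p = 7.1e-07), and Vav3 was lower (-3.54 ± 0.08, adjusted p = 1.2e-06).

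The list of TAM regulators and of enzymes that process their ligands held 16 genes. With LPS 7 rose and 6 fell (median 0.20). Socs3 and Socs1, suppressors of cytokine signalling that TAM receptors are known to induce, rose by 6.81 ± 0.08 (adjusted p = 1.1e-06) and 5.07 ± 0.12 (adjusted p = 3.9e-06). The nuclear receptor gene Pparg fell by 4.87 ± 0.10 (adjusted p = 2.9e-06). Socs1 and Socs3 were higher in the same samples in which Mertk, Gas6 and Pros1 were lower and Axl was not called. The part of TAM receptors in the Socs1 and Socs3 levels was not tested. With IL-4 4 rose and 5 fell (median 0.04), a total of 9 that came to 5 without control replicate 2, 5 without IL-4 replicate 1 and 4 without IL-4 replicate 2. Socs1 rose by 4.09 ± 0.12 (adjusted p = 5.3e-05), and Pparg rose by 1.06 ± 0.10 (adjusted p = 0.0023). In colony cells 4 were higher and 10 lower (median -0.69), where 71.4% of all genes were called with a median of -0.36. Nr1h3 (LXR-alpha, a nuclear receptor known to drive Mertk in mouse macrophages) was lower (-5.28 ± 0.08, adjusted p = 4.8e-07). It rose with LPS (2.69, adjusted p = 5.6e-06) and with IL-4 (0.46, adjusted p = 0.013). Mertk was lower than control in each of these groups, and the part of Nr1h3 in that was not tested. Pparg was lower in colony cells too (-4.61 ± 0.10, adjusted p = 1.1e-06). Twist1, a transcription factor known as a target of Axl signalling, was at least 96.5-fold higher. Twist1 was not well above background in any macrophage group. It thus passed the filter through the colony cells alone, and no p is given for it. The part of Axl in its level was not tested.

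Among 8 receptors for find-me signals and brakes on uptake, 4 rose and 4 fell with LPS (median 0.06). S1pr1, a receptor for sphingosine-1-phosphate, fell by 2.61 ± 0.14 (adjusted p = 5.5e-05), and Cd24a, a brake on uptake, fell by 2.30 ± 0.08 (adjusted p = 9.4e-06), while P2ry2, a receptor for released nucleotides, rose by 1.32 ± 0.08 (adjusted p = 7.2e-05). With IL-4 1 rose and 2 fell (median -0.07). Cx3cr1, the fractalkine receptor, fell by 5.33 ± 0.10 (40.1-fold, adjusted p = 1.8e-05) and S1pr1 fell by 1.48 ± 0.14 (adjusted p = 0.0023), and Cd24a rose by 1.03 ± 0.08 (adjusted p = 0.00091). In colony cells 1 was higher and 6 lower (median -1.83). Gpr132, a receptor for lysolipids, was lower (-4.45 ± 0.07, adjusted p = 5.2e-07), as were Sirpa, the phagocyte receptor for the CD47 brake (-3.88 ± 0.09, adjusted p = 1.3e-06), and S1pr1 (-3.80 ± 0.14, adjusted p = 6.4e-06).

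**Figure D4:**
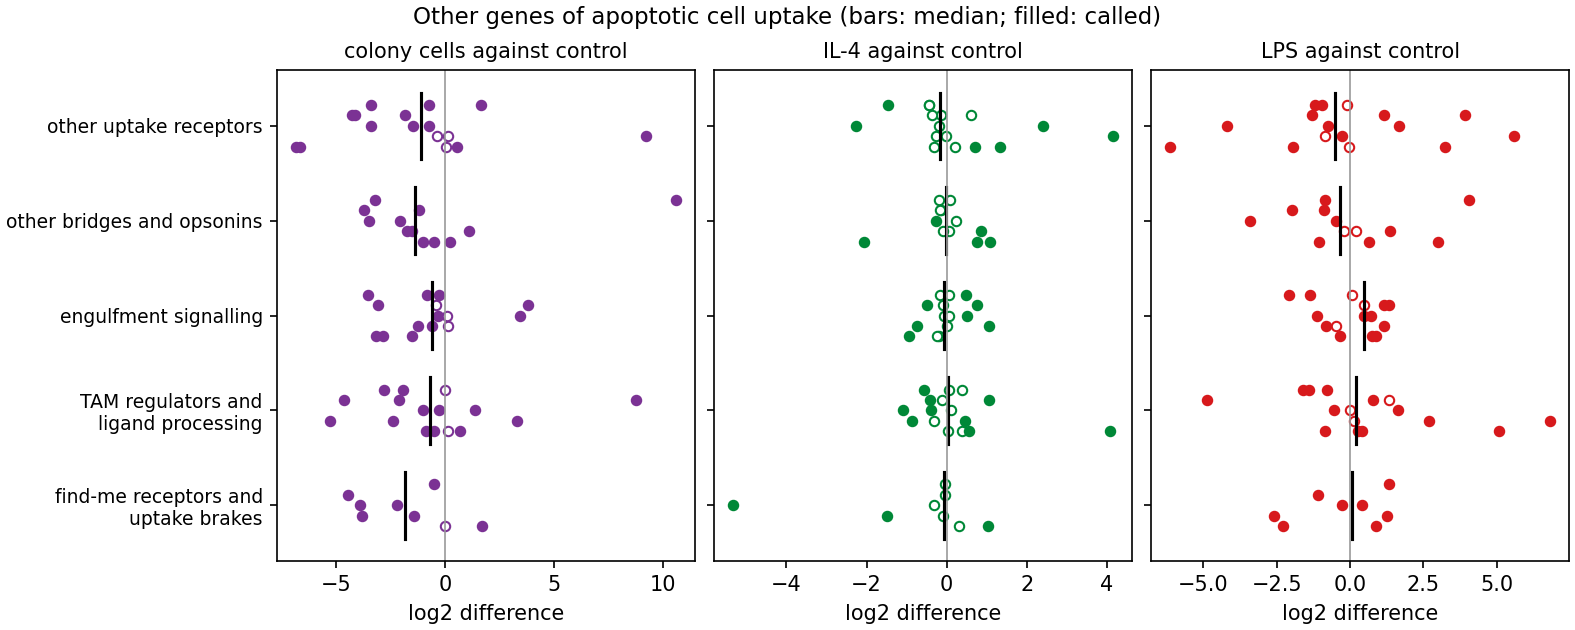
Log2 differences (x axis) of the genes of 5 lists (rows), with 1 panel each for colony cells, IL-4 and LPS against control macrophages, filled where called and with bars at each list's median. In colony cells the medians run from -1.83 (find-me receptors and uptake brakes) to -0.57 (engulfment signalling), and with IL-4 from -0.16 to 0.04.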

How the data were processed

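Total RNA of 8 samples, 2 in each of 4 groups taken from the labels, was amplified, labelled with Cy3 and measured on 1-colour arrays. The deposited scanner files give each spot's signal as an intensity, background-subtracted but not scaled between arrays, written by Agilent Feature Extraction 10.7.3.1 per the file headers. They also hold deposited marks for spots well above background, saturated or uneven. A deposited value table on the log2 scale matched that signal on the log2 scale less a constant for each array (column medians 2.91 and 2.88 in colony cells, 2.93 and 2.93 with IL-4, 2.87 and 2.53 with LPS, and 2.89 and 2.96 in control macrophages). What sets that constant is not given in the sources used here, and the table served as an alternative. The submitters' processing notes name Partek 6.4 and RMA without saying for what. The 8 arrays shared 1 slide and 1 scan.

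Here, marked spots were left out, each array's 75th percentile of log2 signal was subtracted, and repeat spots were averaged per probe. Probes were kept where at least 1 group had both of its arrays well above background, and the kept probe with the highest mean stood for its gene. Current names came from RefSeq by transcript (26762 probes), symbol (3819) or synonym (639), and 24461 probes kept the name in the files. limma 3.58.1 in R 4.3.3 fitted 4 group means over all 8 arrays (4 residual and 1.57 prior degrees of freedom, no intensity trend), with Benjamini-Hochberg adjustment over 26504 genes in each of 6 comparisons. The script was tested on simulated data. Where a gene was not well above background on either array of 1 group, the fold is a lower bound: the other group's mean against the mean, per dim array, of the gene's own signal or, if higher, that array's lowest signal among probes well above background. The main fit did not treat replicate numbers as pairs, and the replicate differences of any 2 groups correlated at -0.16 to 0.052. These values cannot show whether the samples were paired, since a shared effect smaller than the spread between arrays could go unseen.

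The genes, the 5 lists of related genes and the 8 marker lists were chosen with earlier results of these data known. Cd14 stands both among the uptake receptors and among the macrophage markers, and Pecam1 both among the find-me receptors and uptake brakes and among the endothelial markers. From each of the 5 lists, the text names per comparison up to 3 called genes with the largest change, provided that the group with the higher level was well above background. A gene that this rule picks is not reported here. For likeness it names the 3 nearest genes with a symbol. Lists were described by counts and medians, with no set test. Alternatives were normexp background correction (offset 50), quantile normalization, median centring, the deposited table, no filter and a stricter one (all 8 arrays), the mean of a gene's probes, a fit over probes, marked spots kept, an intensity trend, the replicate block and each array left out. The slide could not serve as a block, since there was only 1.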

Additional observations from a re-analysis of the deposited data

How the results depend on the processing

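All Mertk and Gas6 results, the LPS against control results of Pros1 and Mfge8, and the colony cell results of Axl and Mfge8 kept their direction and their side of the threshold under every alternative run. Of the recomputed results of the 6 genes, 647 kept both, 27 lost the call, 4 gained it and 12 changed sign. For Tyro3 most changes came with a change of probe, while IL-4 against LPS lost its call with normexp on the same probe (0.30, adjusted p = 0.09). LPS against control became 1.43 with the stricter filter, which drops the downstream probe, 1.43 on the upstream probe alone and 0.23 with the mean of both probes. IL-4 against LPS became -1.72, -1.72 and -0.46 under these settings, and colony cells against LPS became -1.11 under the first pair. Tyro3 with IL-4 against control ranged from -0.376 to 0.0343 on leaving out 1 array, with the sign change without control replicate 1. Axl with LPS against control was -0.0046 with median centring and -0.012 in the deposited table, and Pros1 in colony cells against control was 0.0012 with quantile normalization. The cause of these 3 was not tested. With IL-4 against control, the count of the 6 genes called was 2 to 4 on leaving out 1 array. TAM regulators called numbered 5 with median centring and 5 in the deposited table (9 in the reported setting), and 4 to 9 on leaving out 1 array. Engulfment genes called numbered 4 with median centring, 3 in the deposited table and 4 with the mean of a gene's probes (7 in the reported setting), and 3 to 7 on leaving out 1 array. Over all genes the IL-4 calls numbered 5049, against 2667 with median centring, 2566 in the deposited table and 2004 to 5270 on leaving out 1 array. Another scaling moved the median of all genes in LPS against control from 0.07 to -0.11 with median centring and -0.13 in the deposited table. Normexp, which changed the background correction and kept the scaling, moved it to -0.15. Whether the replicate numbers pair samples between groups is not known. With the replicate block Axl with IL-4 against control stayed at -0.35 but lost its call (adjusted p = 0.074). The count of the 6 genes called there was 3, and calls over all genes numbered 3861. The faint signal of Tyro3 in macrophages and of Timd4 on every array limits what can be read there.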
